A study of Heterocephalus glaber with 23 samples.

Results

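In 3 of 23 naked mole-rat livers, a single row of the count table, MTRNR2L4, took more than 7% of all counts. These livers were female breeder 6, male breeder 5 and male non-breeder 3. They were set against the other 20 (the high-share and the other livers below), with the 4 study groups as covariate. Because the 3 livers were chosen by their own counts, every value that sets them against the other 20 is a description and carries no test. Tests are given only within the other 20 livers and for the groups of the study.

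The series holds poly(A) RNA-seq of liver from a eusocial rodent in which reproduction is restricted to a few animals of the colony, and the paper asks how breeders and non-breeders differ. The groups were 6 female breeders aged 3.3 to 3.7 years, 5 female non-breeders aged 2.4 to 4.0 years, 6 male breeders aged 2.8 to 4.1 years and 6 male non-breeders aged 2.7 to 4.1 years. Breeders had been taken from their colonies and mated with unrelated animals while litter siblings stayed behind as non-breeders, so colony and housing cannot be told apart from status. Time since the last birth also went with sex among breeders, as it was days in males and weeks in females. The study's list of libraries gives read lengths that differ slightly among livers, and the high-share livers do not share one length. They came from 3 different groups, and no female non-breeder was among them. Female breeder 6 was 3.3 years old, and male breeder 5 and male non-breeder 3 were both 4.1 years old, at the upper end of the ages studied.

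MTRNR2L4 belongs to a family of nuclear genes, named in human as MT-RNR2-like, that resemble the 16S ribosomal RNA of mitochondria. The family was named after humanin, a small peptide whose reading frame lies within that ribosomal RNA and which protects cultured neurons from death. The 16S ribosomal RNA is a major RNA of mitochondria and carries short adenine tails, so poly(A) libraries can contain it. Of 13 MTRNR2L genes looked for, MTRNR2L4 was the only one with a row. No row name began with MT-, or with MTND or MTCO and a number. Mitochondrially encoded genes under other names were not searched for. Because reads that fit several places were dropped, near-identical copies may have lost reads or passed them to this single row, and the row cannot be assigned to a nuclear gene or to mitochondrial RNA.

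Hepatocyte transcripts dominated all livers. Albumin (ALB), the main plasma protein of liver, took 7.86% of counts in male non-breeder 3, 8.11% in female breeder 6 and 10.8% in male breeder 5, which is within its range of 7.42% to 15.5% in the other livers. All 25 hepatocyte genes with a row passed the filter on low counts, and none of 8 pancreas markers with a row did. In bulk RNA, fewer cells of a type and less RNA per cell cannot be told apart.

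The level of MTRNR2L4 was compared first. In male non-breeder 3 it took 11.94% of 17359722 counts (95% exact Clopper-Pearson interval 11.92% to 11.95%) and was the most abundant row, ahead of ALB. Female breeder 6 had 8.40% of 11826665 counts (8.39% to 8.42%), again ahead of every other row. Male breeder 5 had 8.24% of 13364037 counts (8.22% to 8.25%), second to ALB. Just outside the threshold were male breeder 2 with 5.99% and male breeder 6 with 5.17%, and the lowest value was 1.92%, in female breeder 5. These intervals cover counting error only and are far narrower than the spread among animals.

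**Figure D1:**
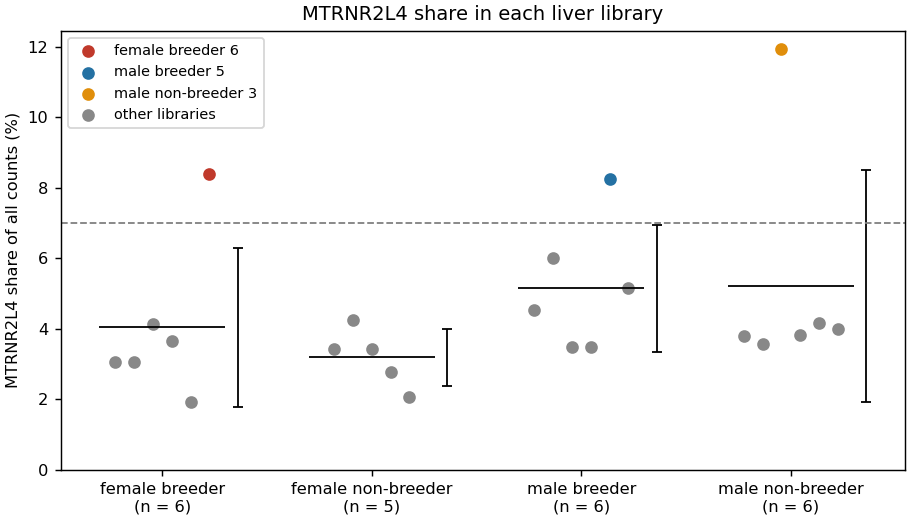
MTRNR2L4 share of all counts (%, vertical axis) in each of 23 livers by group (horizontal axis). Points are livers, horizontal bars are group means over all livers of a group, the brackets beside them are the mean ± SD, and the dashed line marks 7%. The 3 coloured livers lie at 8.24% to 11.94%, the grey ones at 1.92% to 5.99%.

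In CPM (counts relative to TMM-scaled library size) MTRNR2L4 stood at 79092 in female breeder 6, 79602 in male breeder 5 and 133129 in male non-breeder 3, and between 19987 and 56702 with a median of 36759 in the other livers. The fitted difference was 1.35 on the log2 scale, a 2.54-fold higher level. By group, female breeders had a share of 4.04% ± 2.27 and female non-breeders one of 3.18% ± 0.818 (mean ± SD over 6 and 5 livers). Male breeders had 5.15% ± 1.80 and male non-breeders 5.21% ± 3.30 (mean ± SD over 6 livers each). Without the high-share livers it was 3.16% ± 0.833 in female breeders, 4.53% ± 1.09 in male breeders and 3.86% ± 0.233 in male non-breeders (SD, n = 5 in each). Most of the spread of MTRNR2L4 in male non-breeders thus came from 1 animal.

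None of the 5 contrasts of the study passed for MTRNR2L4 over all 23 livers. Females minus males was -0.82 ± 0.36 in non-breeders (log2 ± SE, edgeR quasi-likelihood test with Benjamini-Hochberg adjustment over all genes, adjusted p = 0.856) and -0.44 ± 0.33 in breeders (edgeR, adjusted p = 0.948). Breeders minus non-breeders was 0.25 ± 0.35 in females and -0.14 ± 0.33 in males (edgeR, adjusted p = 1.00 for both), and the status difference itself did not differ detectably between the sexes (0.38, edgeR, adjusted p = 1.00). Without the high-share livers the sex difference was -0.36 in non-breeders and -0.62 in breeders. These values are a description, since leaving out livers for their own MTRNR2L4 share narrows the spread of the gene that is compared. The status differences were then -0.11 in females and 0.16 in males, of the opposite sign to those over all livers.

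Properties of the libraries were then set beside the share. Total counts of the high-share livers lay between 11826665 and 17359722, against 12947053 to 22969366 in the others, and female breeder 6 had the lowest total of all. It also had the fewest genes with at least 10 counts, 11529, while the other livers had 11629 to 12199 and male breeder 5 and male non-breeder 3 lay within that range. Within the other 20 livers, no relation was detected between the log2 CPM of MTRNR2L4 and total counts (Pearson r = -0.09, permutation p = 0.710, adjusted p = 0.710, Spearman rho = -0.09, n = 20) or age (r = -0.16, permutation p = 0.498, adjusted p = 0.710, rho = -0.02, n = 20). For the number of genes with at least 10 counts, r was -0.32 (permutation p = 0.176, adjusted p = 0.528) and rho -0.45 (permutation p = 0.0501, adjusted p = 0.150), and without the 2 livers farthest from the median MTRNR2L4 level r was -0.48 (n = 18, permutation p = 0.0413 before adjustment). Adjusted p-values are over these 3 relations. RNA quality values were not used here, so their part in any of the differences was not tested.

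The high-share livers stood apart in the rest of the transcriptome as well. On the first principal component, which was computed without MTRNR2L4 and held 26.4% of the variance, male non-breeder 3 lay at 91.7, female breeder 6 at 52.7 and male breeder 5 at 43.8, while the other livers reached from -22.9 to 22.3. The highest of these others was male breeder 2, which also had the next highest MTRNR2L4 share. The mean correlation with the remaining livers was 0.912, 0.940 and 0.955 in the same order, against 0.957 to 0.970 in the others. Male non-breeder 3 had 3221 genes at least 2-fold from the mean of the other members of its group, female breeder 6 had 1755 and male breeder 5 had 916. The other livers had 315 to 936 such genes, so male breeder 5 was within their range by this measure. Their reference means also left out the high-share livers.

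**Figure D2:**
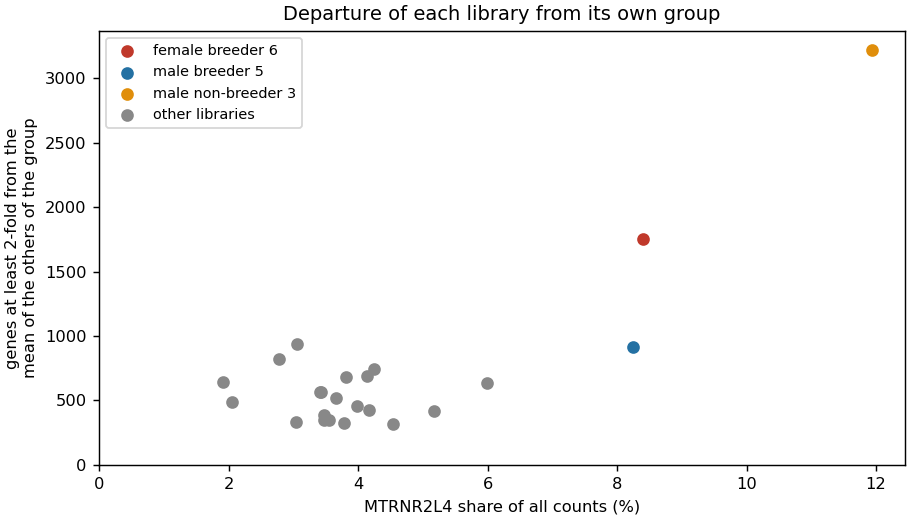
Number of genes at least 2-fold from the mean of the other livers of the same group (vertical axis) against the MTRNR2L4 share of all counts (%, horizontal axis). The high-share livers were left out of every mean. Each point is a liver. Male non-breeder 3 (3221 genes) and female breeder 6 (1755 genes) lie above all grey points, which end at 936, and male breeder 5 (916 genes) does not.

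Each high-share liver was set against the rest of its own group, which gives references that do not overlap. At least 2-fold lower were 1177 genes in female breeder 6, 586 in male breeder 5 and 1973 in male non-breeder 3. Of these, 309 were lower in all 3 livers, which is 26.3%, 52.7% and 15.7% of the respective lists. At least 2-fold higher were 577, 330 and 1247 genes, and 33 of them were shared by all 3 livers, or 5.72%, 10% and 2.65% of the lists. The livers thus had more lower than higher genes in common.

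In the fit over all 23 livers with group as covariate, 367 of 12305 genes were at least 2-fold higher and 992 at least 2-fold lower in the high-share livers, with a median difference over all genes of 0.01 on the log2 scale. When the ranges of the 3 and the other 20 livers also had to be separate, 77 genes were higher (0.626% of those tested) and 545 lower (4.43%). The higher count changed when single livers were left out. It was 194 without female breeder 6, 242 without male breeder 5, 49 without male non-breeder 3 and 120 without male breeder 2. Without male breeder 5 the lower count was 872. Leaving out any liver eases the rule of separate ranges, since fewer livers must lie apart. Separate ranges at any size of difference were found for 483 genes that were higher (3.93%) and 882 that were lower (7.17%). The livers were chosen by this same contrast, so these percentages only describe it.

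The 15 genes named for the highest differences had log2 differences of 1.16 to 1.70. All genes in this and the next paragraph were named for a large difference with separate ranges, so the separation is the rule and not a result. In what follows, 3 values in a row belong to female breeder 6, male breeder 5 and male non-breeder 3. PTBP2, a polypyrimidine tract-binding regulator of splicing, had 16.6, 18.4 and 29.8 CPM, against 3.46 to 14.7 CPM (median 6.07) in the other livers, a log2 difference of 1.70. TIA1, an RNA-binding protein of stress granules, had 53.7, 58.9 and 49.4 CPM, against 12.1 to 47.0 CPM (median 19.9), and TRA2A, a splicing activator, had a log2 difference of 1.16. For TIA1 and for IER5, an immediate early gene with 8.12, 9.54 and 10.98 CPM against 1.56 to 7.71 CPM, the highest of the other livers nearly reached the high-share ones. S100A10, the partner of annexin A2 at the plasma membrane, had 54.8, 39.5 and 72.0 CPM, against 12.4 to 28.5 CPM (median 18.4), and the calcium-binding S100A13 followed at a log2 difference of 1.28, highest in male non-breeder 3 with 60.7 CPM. CD55, which speeds the decay of complement convertases on host cells, had 48.4, 42.6 and 71.2 CPM, against 11.6 to 35.0 CPM. FXYD2, a modulatory subunit of the sodium-potassium pump, had 24.3, 14.6 and 10.9 CPM, against 1.59 to 8.74 CPM. Like TBC1D8, it was highest in female breeder 6, whereas PTBP2, S100A10, S100A13 and CD55 were highest in male non-breeder 3. HEMK1, a methyltransferase of mitochondrial translation release factors, had 204, 159 and 218 CPM, against 45.4 to 156 CPM. Others were GEN1, a nuclease that resolves Holliday junctions (log2 difference 1.52), TBC1D8, a protein with a Rab GTPase-activating domain (1.32), COL4A3, a basement membrane collagen chain (1.23), NEXN, an actin-binding protein (1.17), the zinc finger gene ZNF420 (1.18) and FAM209B (1.24).

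The 15 lowest differences were larger in size, from -2.45 to -3.62 on the log2 scale. TGOLN2, an integral protein of the trans-Golgi network, had 17.0, 8.89 and 3.79 CPM, against 28.5 to 144 CPM (median 84.2) in the other livers, a log2 difference of -3.13. PPM1H, a protein phosphatase, had 0.955, 1.23 and 0.771 CPM, against 3.56 to 19.8 CPM (log2 difference -3.62). SFT2D2, a vesicle transport protein (-2.91), the RING finger gene RNF150 (-2.87) and RMDN2, a microtubule-associated protein (-2.50), were low in all 3 livers too. FOXO3 and FOXO1 encode forkhead factors that are kept out of the nucleus by insulin signalling. FOXO3 had 0.398, 1.08 and 0.321 CPM, against 2.74 to 8.18 CPM, and FOXO1 had 5.49, 3.98 and 0.835 CPM, against 11.8 to 47.4 CPM. GNAQ, an alpha subunit of Gq proteins, had 0.796, 1.16 and 0.450 CPM, against 2.53 to 8.66 CPM. ALDH6A1, a mitochondrial dehydrogenase of valine breakdown, had 32.2, 30.1 and 10.5 CPM, against 77.5 to 241 CPM (median 175), and AASS, the first enzyme of lysine breakdown, had 10.7, 22.3 and 2.70 CPM, against 44.6 to 106 CPM. SC5D, a desaturase late in cholesterol synthesis, had 32.5, 33.5 and 8.93 CPM, against 111 to 248 CPM (median 151). For 14 of the 15 genes, RMDN2 being the exception, male non-breeder 3 was the lowest liver. ENTPD5, a nucleotidase of the endoplasmic reticulum (-2.58), and PDGFRA, a growth factor receptor of stellate cells and fibroblasts (-2.45), belonged to the same group. NOMO2 (-2.56) and UGT1A6 (-2.49) are less certain, since NOMO2 has near-identical copies and the UGT1A genes share exons.

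**Figure D3:**
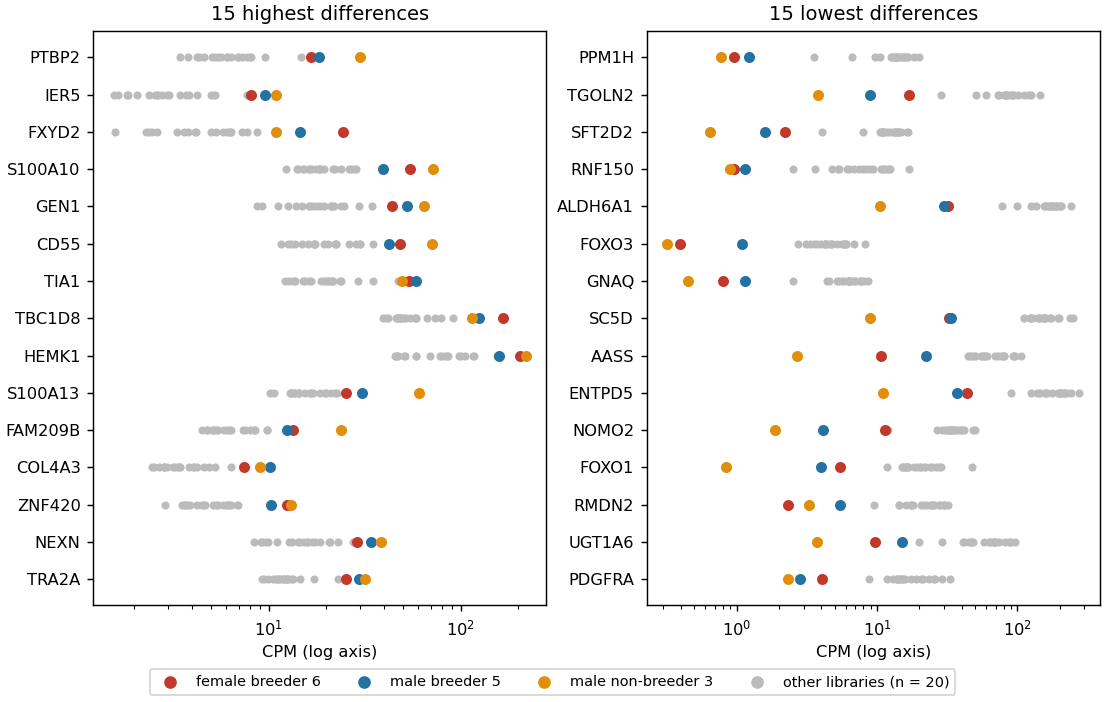
CPM (horizontal log axes) of the 15 genes with the highest (left) and the 15 with the lowest (right) fitted log2 difference, among genes whose ranges were separate. Coloured points are the 3 high-share livers and grey points the other 20. The differences reach from 1.16 (TRA2A) to 1.70 (PTBP2) on the left and from -2.45 (PDGFRA) to -3.62 (PPM1H) on the right.

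Most nuclear genes of the respiratory chain had a fitted difference above 0. Of 36 complex I genes, 32 lay above 0, with a median log2 difference of 0.51, and 23 of 26 genes of complexes II to IV did, with a median of 0.55. Over all genes, 6246 of 12305 lay above 0 and the median was 0.01. Most members still overlapped, as 7 complex I genes were higher and 1 lower with separate ranges, and 6 of complexes II to IV were higher and 1 lower, beside 3.93% higher and 7.17% lower over all genes. NDUFA5, an accessory subunit of complex I, had 34.9, 40.6 and 82.7 CPM, against 17.6 to 33.3 CPM (median 24.1) in the other livers. UQCR10, a small subunit of complex III, had 25.9, 27.8 and 46.1 CPM, against 10.8 to 22.0 CPM (median 14.3). ATP synthase genes had a median of 0.49 with 12 of 16 above 0. The list departed by 0.22 in female breeder 6, 0.30 in male breeder 5 and 0.82 in male non-breeder 3. The other livers had -0.33 to 0.45, so only male non-breeder 3 lay outside their range. Higher with separate ranges were 2 of its genes, beside 3.93% of all genes. ATP5I, a membrane subunit, was among them with 120, 126 and 283 CPM, against 52.8 to 111 CPM, whereas ATP5E and ATP5L overlapped. The complex I list departed from the rest of the group by 0.49 in female breeder 6, 0.33 in male breeder 5 and 0.70 in male non-breeder 3 (median log2 departure), against -0.28 to 0.45 in the other livers, so male breeder 5 was inside their range. Complexes II to IV departed by 0.46, 0.33 and 0.75, against -0.29 to 0.38, with male breeder 5 again inside.

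Ribosomal protein genes followed the same direction. Of 77 cytosolic ribosomal protein genes, 73 lay above 0, with a median of 0.47, and 20 were higher with separate ranges, beside 3.93% of all genes. The list departed from the rest of the group by 0.49 in female breeder 6, 0.28 in male breeder 5 and 0.60 in male non-breeder 3, against -0.36 to 0.35 in the other livers, so male breeder 5 was again inside their range. RPL27 of the large subunit had 243, 197 and 382 CPM, against 91.8 to 193 CPM (median 126), and RPS26 of the small subunit had 124, 111 and 226 CPM, against 47.6 to 102 CPM (median 65.6). Ribosomal protein genes have many processed copies in mammals, and how their reads were shared out is uncertain. Of 73 mitochondrial ribosomal protein genes, 63 lay above 0 (median 0.40). Separate ranges were found for 14 higher and 0 lower, beside 3.93% higher and 7.17% lower over all genes. This list departed by 0.40, 0.26 and 0.47, against -0.21 to 0.32 in the other livers, so male breeder 5 was inside their range here too. MRPL27 had 64.9, 78.4 and 176 CPM, against 40.5 to 69.0 CPM, so female breeder 6 was within the range of the other livers.

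Genes that handle mitochondrial nucleic acids did not follow that pattern. For 39 genes of mitochondrial RNA and ribosome maturation, the median was -0.10, with 17 above and 22 below 0. Beside 3.93% higher and 7.17% lower over all genes, separate ranges were found for 2 higher and 2 lower genes of this list. The higher ones, named after their values were seen, were MALSU1, an assembly factor of the mitochondrial ribosome (log2 difference 1.01), and PNPT1, a mitochondrial polynucleotide phosphorylase (0.54). RNMTL1 (now MRM3), which methylates mitochondrial 16S ribosomal RNA, had 2.94, 3.04 and 2.76 CPM, against 4.86 to 7.25 CPM (median 5.78), a log2 difference of -0.96. LRPPRC, which stabilizes mitochondrial messenger RNA, had 218, 159 and 108 CPM, against 190 to 330 CPM, and only male breeder 5 and male non-breeder 3 lay below that range. Genes of mitochondrial DNA maintenance and transcription had a median of -0.20, with 13 of 20 below 0. Separate ranges were found for 2 higher and 4 lower genes, beside the shares over all genes given above. SSBP1, which binds single-stranded mitochondrial DNA (0.87), and RNASEH1, which removes RNA from hybrids with DNA (0.34), were the higher ones and were likewise named after their values were seen. TFAM, the packaging and transcription factor of mitochondrial DNA, had 10.4, 10.9 and 4.37 CPM, against 13.4 to 19.4 CPM (median 15.8), all 3 livers being below the others. TK2, the mitochondrial thymidine kinase, had 5.97, 5.49 and 2.51 CPM, against 11.2 to 27.4 CPM, and RRM2B, a ribonucleotide reductase subunit that supplies nucleotides outside of S phase, had a log2 difference of -1.60. PPARGC1A, a coactivator of mitochondrial biogenesis, had 5.73, 10.3 and 13.9 CPM, and its range of 8.98 to 74.4 CPM in the other livers took in male breeder 5 and male non-breeder 3. Mitochondrial chaperone, protease and import genes had a median of 0.06, with TIMM10, a small chaperone of the intermembrane space, higher at 60.6, 63.9 and 103 CPM against 27.3 to 53.9 CPM.

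Lists of hepatocyte metabolism had medians below 0 of differing size. In the urea cycle and amino acid metabolism, 23 of 29 genes lay below 0 (median -0.39) and 6 were lower with separate ranges, beside 7.17% of all genes. The list departed by -0.53 in female breeder 6, -0.23 in male breeder 5 and -0.45 in male non-breeder 3, against -0.29 to 0.30 in the other livers, so male breeder 5 lay inside their range. CPS1, the entry enzyme of the urea cycle and one of the most abundant proteins of liver mitochondria, had 804, 762 and 304 CPM, against 1627 to 4468 CPM (median 2210), a log2 difference of -2.06. TAT, the tyrosine aminotransferase induced by glucocorticoids, had 389, 455 and 525 CPM, against 713 to 2870 CPM (median 1321). HNF4A, a main regulator of hepatocyte genes, had 157, 130 and 119 CPM, against 176 to 547 CPM (median 327). Yet the list of 25 hepatocyte genes had a median of -0.03, with 11 above and 14 below 0, so its median did not follow TAT and HNF4A. Separate ranges were found for 4 lower and 0 higher genes of it, beside 7.17% lower and 3.93% higher over all genes. Its summed level was 144580 to 171020 CPM, against 156060 to 275820 CPM (median 200360) in the other livers, so the ranges overlapped at the low end. Cholesterol synthesis had 23 of 26 genes below 0 (median -0.48), but the size differed among livers. The median departure was -0.14 in female breeder 6, -0.41 in male breeder 5 and -1.32 in male non-breeder 3. It was -0.46 to 0.80 in the other livers, so only male non-breeder 3 lay outside their range. STARD4, a sterol carrier of this list, had 5.41, 9.04 and 0.964 CPM, against 15.3 to 36.1 CPM.

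Fatty acid and triglyceride synthesis had a median of -0.41, with 15 of 21 genes below 0. Female breeder 6 did not share it, as the list departed by -0.0049 there, by -0.36 in male breeder 5 and by -0.56 in male non-breeder 3. GPAM, which acylates glycerol phosphate, had 79.8, 162 and 96.5 CPM, against 181 to 434 CPM, and SCD, the stearoyl desaturase, had 415, 892 and 471 CPM, against 476 to 3629 CPM. CPT1A, the gate of mitochondrial fatty acid oxidation, had 58.6, 58.6 and 103 CPM, against 84.9 to 569 CPM, while its list had a median of -0.20. Xenobiotic metabolism had 15 of 18 genes below 0 (median -0.37). Of these, UGT1A1 alone had separate ranges, beside 7.17% lower over all genes, with the reservation on shared exons made above. The list departed by -0.68, -0.07 and -0.43, against -0.56 to 0.48 in the other livers, so only female breeder 6 lay outside their range. Glycolysis, gluconeogenesis and glycogen genes had 17 of 25 below 0 (median -0.24), bile acid genes 10 of 16 (median -0.15) and apolipoprotein and lipid transport genes 12 of 21 (median -0.10). GYS2, the glycogen synthase of liver and the only gene of the first list with separate ranges, had 51.5, 67.9 and 24.7 CPM, against 83.6 to 184 CPM. This 1 gene of 25 stands beside 7.17% lower over all genes. Glucocorticoid response genes had 11 of 13 below 0 (median -0.39), but all 3 livers, with departures from -0.79 to -0.35, lay inside the range of -0.83 to 0.84 of the others. The receptor itself, NR3C1, had 23.3, 39.0 and 8.29 CPM, against 34.5 to 74.4 CPM, so male breeder 5 overlapped.

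Stress lists had medians on both sides of 0. Immediate early genes had a median of 0.71 with 15 of 21 above 0, but the other livers also differed widely in them, with median departures from -1.47 to 1.14. FOS, a subunit of AP-1, had 25.6, 37.3 and 315 CPM, against 1.04 to 313 CPM. Its partner JUN had 84.9, 96.4 and 194 CPM, against 13.5 to 252 CPM, and HSPB1, a small heat shock protein, had 168, 156 and 224 CPM, against 47.0 to 130 CPM. Medians were 0.03 for heat shock genes, 0.08 for endoplasmic reticulum stress, 0.07 for interferon-stimulated genes and -0.13 for hypoxia and oxidative stress. Within the last list SOD2, the superoxide dismutase of mitochondria, had 82.7, 68.2 and 17.6 CPM, against 120 to 260 CPM. Splicing factors and kinases had a median of 0.37 with 23 of 32 above 0, proteasome genes 0.06, autophagy and mitophagy genes -0.14 and circadian clock genes -0.30. The 3 livers did not share a direction in circadian clock genes (departures 0.38, -0.37 and -0.51) or interferon-stimulated genes (-0.37, 0.01 and 0.54). Departures also differed in sign for heat shock, endoplasmic reticulum stress, hypoxia and oxidative stress, proteasome, and autophagy and mitophagy genes.

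Markers of other cell types were read as whole lists, and none had a summed level separate from the other livers. Erythroid markers had 11 of 13 genes above 0 (median 0.39), and their summed level was 599 to 1040 CPM, against 255 to 889 CPM in the other livers, with 1 marker at 0 in all livers. HBB, a beta globin whose reads may be shared with other globins, had 261, 219 and 547 CPM, against 53.4 to 326 CPM. Markers of striated muscle had 11 of 12 above 0 (median 0.84) at low levels, with a sum of 74.3 to 205 CPM against 35.2 to 234 CPM. Neutrophil markers had 11 of 13 above 0 (median 0.31) and a sum of 51.5 to 314 CPM against 44.3 to 268 CPM, of which S100A8, a subunit of calprotectin, made 108 CPM in male non-breeder 3 but 15.7 and 10.8 CPM in the other high-share livers. Summed levels were 710 to 985 CPM against 441 to 890 CPM for macrophages and Kupffer cells, 539 to 831 CPM against 256 to 791 CPM for lymphocytes, 319 to 442 CPM against 292 to 703 CPM for stellate cells and fibroblasts, 208 to 378 CPM against 184 to 277 CPM for cholangiocytes, and 1316 to 1953 CPM against 345 to 5716 CPM for adipocytes. Endothelial markers had 13 of 18 below 0 (median -0.18) and a sum of 634 to 839 CPM against 562 to 957 CPM, with a median departure of -0.62 in female breeder 6, -0.15 in male breeder 5 and 0.14 in male non-breeder 3. Of the 18, 2 were lower with separate ranges, beside 7.17% of all genes. LYVE1, a hyaluronan receptor of sinusoidal endothelium, had 4.06, 2.31 and 3.73 CPM, against 5.00 to 27.0 CPM, and the VEGF receptor FLT1 had 6.37, 13.5 and 6.42 CPM, against 17.7 to 36.1 CPM. The part of these cells in the differences above was not tested.

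**Figure D4:**
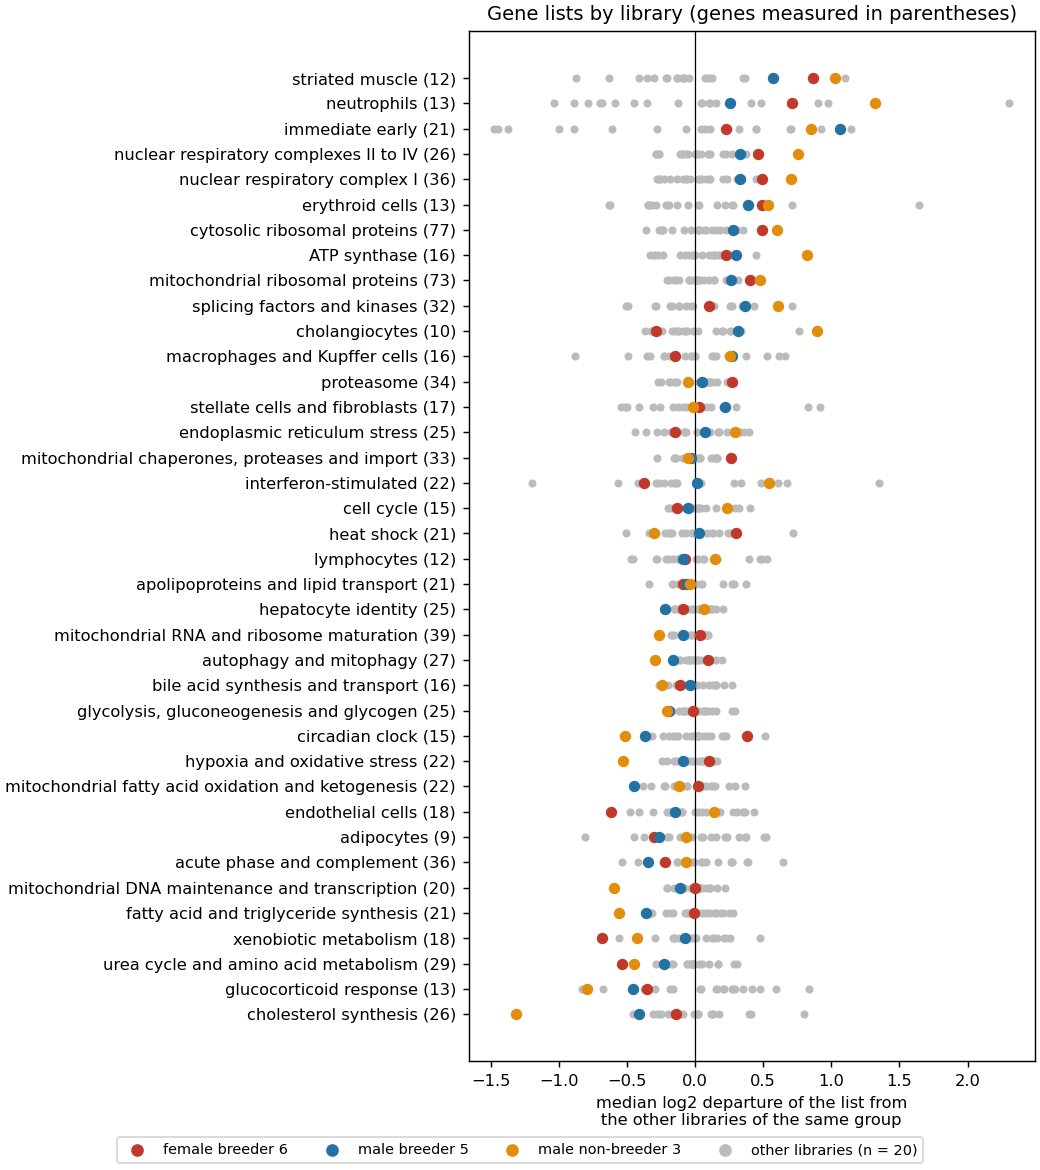
Median log2 departure of each gene list from the other livers of the same group (horizontal axis), one row per list with the number of genes in parentheses. Coloured points are the high-share livers and grey points the other 20. Complexes II to IV (0.33 to 0.75) and complex I (0.33 to 0.70) lie to the right in all 3, urea cycle and amino acid metabolism (-0.53 to -0.23) to the left, and cholesterol synthesis is spread from -1.32 to -0.14.

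To see which genes vary with MTRNR2L4 outside the chosen livers, a slope on its log2 CPM was fitted within the other 20, with group as covariate. Of 12236 genes, 0 rose and 0 fell past the threshold (0% each, edgeR quasi-likelihood test, adjusted p under 0.05), and 1427 had an unadjusted p under 0.05. DESeq2 called 24 rising and 31 falling genes, and limma voom called 0. The smallest p with edgeR belonged to MYL6, a light chain of nonmuscle myosin, with a slope of 0.78 ± 0.15 (log2 per doubling of MTRNR2L4 ± SE, edgeR, adjusted p = 0.251). PSENEN, a subunit of gamma-secretase, had 0.78 ± 0.16, TXN, the cytosolic thioredoxin, 0.72 ± 0.15, and DPM2, a subunit of dolichol phosphate mannose synthase, 0.64 ± 0.14 (edgeR, adjusted p = 0.251 for each). Negative slopes were led by HEY2, a Notch target listed at under 2 CPM, at -2.17 ± 0.42, the glutamate transporter SLC1A1 at -1.08 ± 0.23, the phosphate transporter SLC20A2 at -0.74 ± 0.16 and the Golgi protein GOLIM4 at -0.68 ± 0.15 (edgeR, adjusted p = 0.251 for each). FMO4, a flavin monooxygenase, at 1.25 ± 0.26 and PLB1, a phospholipase, at 0.98 ± 0.22 completed the 10 genes of smallest p (edgeR, adjusted p = 0.251 for both). All of these except HEY2 were among the calls of DESeq2.

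The slopes and the differences share the 20 livers, so they are given side by side and not counted as support for one another. MYL6 had 116, 113 and 169 CPM in the high-share livers, against 43.7 to 101 CPM in the others, TXN had 65.6, 71.4 and 87.0 CPM, against 27.3 to 57.8 CPM, and DPM2 had 28.9, 28.4 and 44.5 CPM, against 13.3 to 22.9 CPM. SLC1A1 had 4.77, 6.29 and 2.25 CPM, against 6.50 to 23.8 CPM. PLB1 had 11.2, 6.80 and 4.37 CPM, against 5.09 to 17.0 CPM, so it overlapped. The ranges of PSENEN, FMO4, HEY2, SLC20A2 and GOLIM4 overlapped as well. Of the lists, cytosolic ribosomal proteins had 77 of 77 slopes above 0 within the other livers, complex I 34 of 36, complexes II to IV 23 of 26, ATP synthase 14 of 16 and mitochondrial ribosomal proteins 65 of 73, while 6132 of all 12236 slopes lay above 0. Members of a list share library composition and are not independent of one another. Glucocorticoid response genes, by contrast, had 10 of 13 slopes above 0, although 11 of 13 were below 0 in the high-share livers, and urea cycle and amino acid genes had 12 of 29 above 0.

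The genes with the pattern most like MTRNR2L4 over the other 20 livers, by Spearman correlation of log2 CPM among genes with an average log2 CPM of at least 2, were the small-subunit ribosomal gene RPS10 (rho = 0.90), the splicing factor subunit PHF5A (0.86), C14orf142 (0.86), MORN2 (0.84) and RPS26 (0.84). The most unlike were the interferon signal transducer STAT2 (-0.80), the peptide-trimming aminopeptidase ERAP1 (-0.80), the bromodomain protein BRD7 (-0.78), YIPF6 of the Golgi (-0.78) and the kinase MARK3 (-0.76). These are descriptions over 20 livers that share the differences between groups. RPS26 reached 111 to 226 CPM in the high-share livers and STAT2 63.1 to 77.9 CPM, against 92.4 to 428 CPM in the others. RPS10, PHF5A, C14orf142, MORN2 and BRD7 overlapped, whereas ERAP1 and MARK3 were lower with separate ranges. For YIPF6, the values of 12.1, 16.3 and 17.9 CPM lay within or close to the 13.6 to 22.0 CPM of the other livers.

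**Figure D5:**
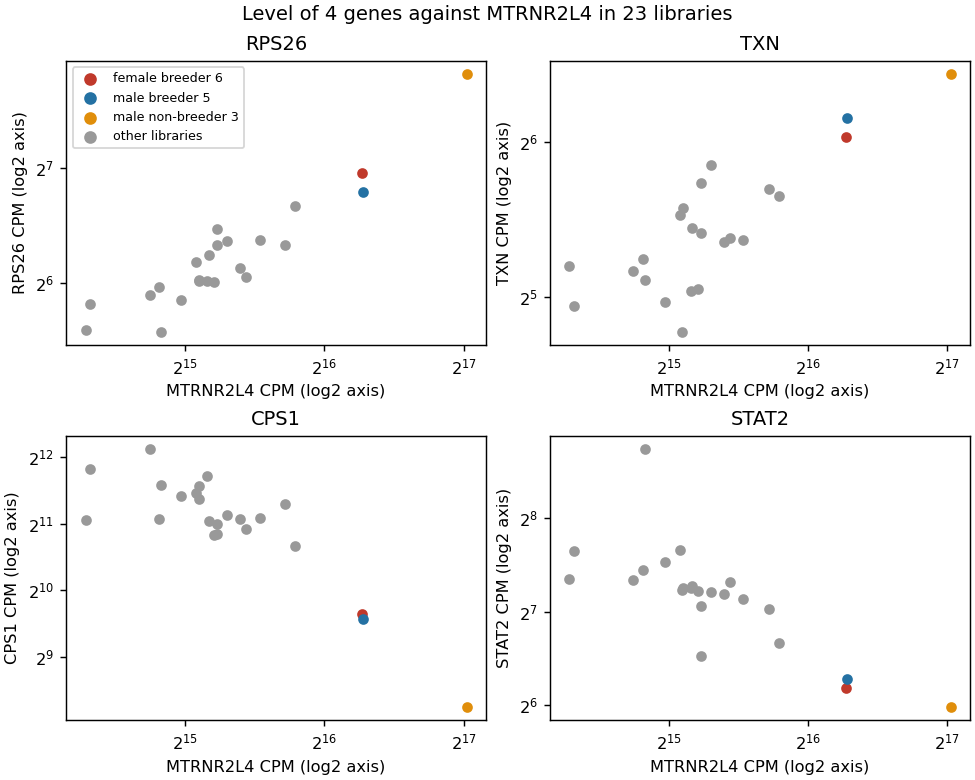
CPM of RPS26, TXN, CPS1 and STAT2 (vertical log2 axes) against MTRNR2L4 CPM (horizontal log2 axes). Each point is a liver. The coloured high-share livers lie above the range of the grey livers for RPS26 (111 to 226 against 47.6 to 102 CPM) and TXN, and below it for CPS1 (304 to 804 against 1627 to 4468 CPM) and STAT2. All genes shown had separate ranges, whereas RPS10, the gene most like MTRNR2L4, did not.

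Last, the comparisons of the study were repeated without the high-share livers. The square root of the common dispersion, a measure of the relative spread among animals of a group, fell from 0.289 with all 23 livers to 0.244 with 20. Sample weights estimated by limma voom were 0.145 for male non-breeder 3, 0.346 for female breeder 6 and 0.564 for male breeder 5, and 0.591 to 2.05 for the others. Calls by edgeR were as many or fewer with 20 livers, and those by DESeq2 as many or more. Between the sexes of non-breeders it stayed at 4, with 4 genes in common, and between the sexes of breeders it went from 6 to 3, all 3 of them also called with 23 livers. The 3 contrasts of status had 0 calls in both settings, with 977 genes at an unadjusted p under 0.05 for both sexes combined before and 1100 after. DESeq2 called 36 genes there with 23 livers and 45 with 20, and between the sexes it called 24 and 42 in breeders and 6 and 8 in non-breeders. Between the sexes of breeders, genes with an unadjusted p under 0.05 went from 725 to 1233, and in non-breeders from 634 to 478.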

How the data were processed

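Livers of 23 animals were analysed, grouped by sex and status from the labels. No animal number occurs in more than 1 title, and libraries were treated as separate animals. The authors made poly(A) libraries without strand information, sequenced them single-end, aligned the reads with STAR 2.4.1d (submitters' processing notes), discarded reads mapping to several places and used HTSeq to count them against transcripts assembled for the species. What they deposited is a table of raw counts, not normalized. Of 16339 rows, 803 held no count in any library and 25 carried a spreadsheet date (0.143% of counts), which were tested but go unnamed. Without strand, antisense overlaps were not separated. No sequences or coordinates are given, since the reference table belongs to another assembly and was used for names only.

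The share of MTRNR2L4 was its count over the library total, with a threshold of 7%. The fit used edgeR 4.0.16 in R 4.3.3. The filterByExpr filter (count of 10, total of 15) passed 12306 genes, which were scaled by TMM and fitted with 4 group means and a term for the 3 livers. Log2 CPM used a prior count of 2. The slope was fitted in the 20 other livers on 12236 genes beside MTRNR2L4 itself, with the robust quasi-likelihood F-test, two-sided, Benjamini-Hochberg adjustment and a threshold of 0.05. Standard errors are the estimate over the square root of F. Departures are log2 CPM minus the mean of the remaining livers of a group, with the high-share livers left out of every mean. Correlations used 100000 permutations, two-sided. Members and the 42 gene lists were chosen with earlier results of these data known.

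Named genes were the 15 highest and 15 lowest differences with separate ranges and an average log2 CPM of at least 2, the 10 genes of smallest p for the slope, the 5 most like and most unlike MTRNR2L4, up to 3 members per list with the largest difference in the direction of its median, and a fixed set (ALB, CPS1, MALAT1, NEAT1, LRPPRC, TFAM, PPARGC1A, FASTKD2, MKI67, HBB, COX6C and NDUFA4). Of the fixed set, MALAT1, NEAT1 and MKI67 were not among the genes that passed the filter and have no values. Some of the other named genes are left out of the text for length. Alternatives were DESeq2 1.42.0, limma 3.58.1 voom with library weights, DESeq2 size factors, no filter, MTRNR2L4 left out of totals, age or no group as covariate, a fold of 1.5, the 2 or 4 livers of highest share, a threshold of 0.01, and leaving out each library. Within groups, the lowest chi-square per degree of freedom between the counts of a pair of libraries was 32.5, far from the 1 of a repeated library. In simulated data the slope test recovered 51 of 100 genes with a log2 slope of 1 and 89 of 100 with 2 (12226 genes), with 3 of 12026 unchanged genes called.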

Additional observations from a re-analysis of the deposited data

Results flagged for a closer look

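Within the 6 livers of its group, female breeder 6 lay far from the other 5 in MTRNR2L4 share (8.405% against 1.92% to 4.13%), in the mean correlation with the other libraries (0.940 against 0.958 to 0.966), on the first principal component (52.7 against -22.9 to 2.68) and in HBB (261 CPM against 53.4 to 129 CPM).

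Male non-breeder 3 lay far from the other 5 of its group in MTRNR2L4 share (11.9% against 3.55% to 4.17%), mean correlation (0.912 against 0.964 to 0.969) and first principal component (91.7 against -19.3 to -7.63). The same held for COX6C, a subunit of cytochrome c oxidase (74.4 CPM against 26.5 to 43.5 CPM), HBB (547 CPM against 106 to 200 CPM), LRPPRC (108 CPM against 213 to 264 CPM) and TFAM (4.37 CPM against 13.5 to 15.9 CPM). Of the 60 groups of values examined by Dixon's criterion at 95%, 11 stood out in this way, and chance alone gives about 1 in 20. No count is read against that rate here, since both MTRNR2L4 shares were used to choose these livers and the other measures come from the same libraries.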

How the results depend on the processing

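Of the genes put through the alternatives, no difference and no slope changed direction under any of them. The number of genes at least 2-fold higher with separate ranges (77) was 328 at 1.5-fold, 174 with the 2 livers of highest share and 43 with the 4 of highest share. It was 49 to 242 when each library was left out, and the lower count (545) was 414 to 872. Breeders minus non-breeders for MTRNR2L4 was -0.0081 in females and 0.12 in males with limma voom, and -0.11 and 0.16 without the 3 high livers (log2). Leaving out each library gave -0.11 to 0.38 in females, -0.31 to 0.33 in males, -0.12 to 0.29 over both sexes, and -0.79 to -0.26 for females minus males in breeders and -0.93 to -0.36 in non-breeders. Its correlation with age was 0.0095 when the share was used in place of log2 CPM. DESeq2 called 24 genes rising and 31 falling with MTRNR2L4, and leaving out each library with edgeR gave 0 calls each time, with 1053 to 1640 genes at an unadjusted p under 0.05. Without the high livers DESeq2 called 8 and 42 genes between the sexes of non-breeders and breeders and 5, 2 and 45 for status in females, in males and over both. Leaving out a further library with edgeR gave 3 to 5 calls between the sexes of breeders (5 without female breeder 2), 4 each time in non-breeders, 0 to 3 for status over both sexes (3 without female breeder 3) and 0 in each sex. The cause of these shifts was not tested. No paired analysis was possible because the animal numbers in the titles do not repeat between groups and the replicate numbers follow accession order. Totals of 11826665 counts and more leave low genes such as FOXO3 with few counts in the high livers.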
